A study of Homo sapiens with 30 samples.

Results

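The sites described here lie in exons of ZNF genes, the protein-coding genes that GENCODE release 29 (build GRCh38) names ZNF followed by a number. The rule found 5425 of the 382978 A-to-G sites listed by the study, or 1.42%, in 172 of the 509 ZNF genes of that annotation. On 1 transcript per gene, 3407 sites were coding, 1644 lay in 3′ UTRs, 268 in 5′ UTRs and 106 in exons of other transcripts of the gene. The other 337 ZNF genes have no listed site. The ZNF sites are set against the 371108 listed exon sites of other protein-coding genes.

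The series measured off-target adenosine deamination in HEK 293T, a human embryonic kidney cell line, by sequencing poly(A) RNA 60 h after transfection. Adenosine deaminases turn adenosine into inosine, which is read as G. In 16 libraries the deaminase domain (DD) of ADAR2 or ADAR1 was fused to MCP, a coat protein that holds MS2 hairpins, with a tag for the nucleus (NLS, nuclear localisation) or for the cytoplasm (NES, nuclear export), carrying a glutamate-to-glutamine change (E488Q in ADAR2, E1008Q in ADAR1, called E-to-Q below) or as wild type, and with or without the MS2 adRNA guide. Another 4 libraries held full-length ADAR2, as E488Q or wild type, with or without a GluR2 adRNA, and 2 held Cas13b-ADAR2 DD (E488Q) with or without its gRNA. Controls were GFP, each of the 3 guides alone and untransfected cells. Every transfected condition is 1 library of transiently transfected cells of 1 line. The untransfected samples, titled 293T with or without a TR number, are treated here as sequencing runs of 1 library. No condition has a biological replicate, so the spreads below are over constructs. Tests over the 16 MCP libraries describe this set of constructs.

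ZNF proteins are mostly C2H2 zinc finger proteins, the largest class of human transcription factors. In each finger a pair of cysteines and a pair of histidines hold a zinc ion, and a short helix between them reads DNA. Fingers stand in arrays joined by conserved linkers of the TGEKP type. Many ZNF proteins begin with a KRAB domain, which recruits the corepressor TRIM28 and silences transposable elements and other targets, or with a SCAN domain, which pairs these proteins. Others act away from DNA, such as ZNF598, a ubiquitin ligase of collided ribosomes.

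The sites the results turn on are shown first, each as 21 bases of the GENCODE transcript from 5′ to 3′ with the edited adenosine, the 11th base, as the capital. The set with the highest edited shares across libraries is given with 2 coding and 2 3′ UTR sites.
ZNF644 R451G, chromosome 1 position 90940003, minus strand: atatgcttgtAgagaatgtgg
ZNF787 I29V, chromosome 19 position 56089087, minus strand: cccagtggacAtcctcatcat
ZNF282 3′ UTR, chromosome 7 position 149225276, plus strand: ctctccgcctAcctccgctgc
ZNF740 3′ UTR, chromosome 12 position 53188535, plus strand: gtgccctcttAggaacaaccc

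Sites inside the zinc finger repeat are shown next, because they recur at the same residues of different genes: the lysine after the second cysteine, the linker tyrosine and the first zinc-binding histidine.
ZNF358 K270R, chromosome 19 position 7520051, plus strand: gtgtgcgccaAgggcttcggc
ZNF71 K421R, chromosome 19 position 56622369, plus strand: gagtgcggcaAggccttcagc
ZNF408 Y607C, chromosome 11 position 46705520, plus strand: gacaagccctAccgctgcccc
ZNF316 H877R, chromosome 7 position 6654226, plus strand: ctggccaagcAccggcgcggc
ZNF316 H363R, chromosome 7 position 6652684, plus strand: ctggccaagcAccagcgctac
ZNF787 H168R, chromosome 19 position 56088669, minus strand: ctggccaagcAccggcgctcg

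The windows of ZNF358 and ZNF71 were identical at 17 of 21 bases, and the 3 histidine windows shared their first 13 bases. The last set holds 3′ UTR sites called in all 4 full-length ADAR2 libraries and in no MCP library.
ZNF655 3′ UTR, chromosome 7 position 99574516, plus strand: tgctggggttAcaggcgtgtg
ZNF121 3′ UTR, chromosome 19 position 9564371, minus strand: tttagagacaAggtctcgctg
ZNF121 3′ UTR, chromosome 19 position 9564279, minus strand: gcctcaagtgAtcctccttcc
ZNF621 3′ UTR, chromosome 3 position 40537568, plus strand: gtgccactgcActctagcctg

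At the listed positions 99.2% of the ZNF sites were adenosine on the strand of the gene, against 32.3% of the bases before and 9.68% of the bases after them. Another 42 sites were T on that strand, and 441 sites lay in exons of more than 1 gene. The labels do not state that the library kit kept strand, so for those sites the edited transcript is uncertain. The files used here give neither read depth nor expression levels, so intervals are not given and the identity of the cells was not checked.

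Sites were unevenly spread over genes. The 6 genes with the most sites were ZNF282, a KRAB protein known for binding the U5 element of the HTLV-1 long terminal repeat, with 281, ZNF703, a corepressor, with 219, ZNF768 with 218, ZNF598 with 208, ZNF503, a paralogue of ZNF703, with 157, and ZNF512B with 153. The 12 genes with the most sites held 36.7% of all ZNF sites, the median gene held 14 and 19 genes held 1. Chromosome 19, the home of the large ZNF clusters, held 945 sites in 42 genes, beside 1057 sites on chromosome 16 and 870 on chromosome 7.

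Coding sites were listed at 38.0 per 1000 coding adenosines of the 172 ZNF genes, against 60.1 per 1000 in the other protein-coding genes with a site. In 3′ UTRs the densities were 19.3 per 1000 in ZNF genes and 25.5 per 1000 in other genes. The files used here hold no read counts, so fewer edited sites and thinner read coverage cannot be told apart. ADAR enzymes are known to favour a G after the adenosine and to avoid a G before it. A G followed the edited base at 62.4% of ZNF coding sites, against 31.6% of all adenosines of the same coding sequences, and a G preceded it at 12.9% of sites, against 27.7% of adenosines. In ZNF 3′ UTRs, UAG made up 13.9% of the sites and 4.44% of the adenosines.

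Most sites were seen in few libraries. A call in a library here means an adjusted p below 0.01 in the authors' deposited table, together with a share higher than the untransfected mean. Of the 5425 ZNF sites, 2154 (39.7%) were called in exactly 1 of the 22 deaminase libraries, against 36.3% of the sites of other genes. Calls in 11 or more libraries were reached by 310 ZNF sites (5.71%), against 6.66% of the sites of other genes, and 16 ZNF sites were called in all 22. These 16 were 10 of 3407 coding and 6 of 1644 3′ UTR sites. In other genes 301 of 237049 coding and 135 of 103282 3′ UTR sites were called in all 22. At 3987 ZNF sites (73.5%) the share was 0 in all 3 untransfected runs used here.

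The first question is how many ZNF sites each construct edited, and calls covered from 1.03% to 56.2% of them. With full-length ADAR2 (E488Q), 2177 ZNF sites were called with the GluR2 adRNA and 597 without it, which is 40.1% and 11.0% of ZNF sites beside 32.7% and 6.72% of all listed sites. With wild-type full-length ADAR2 the counts were 452 with the guide and 154 without it (8.33% and 2.84% of ZNF sites, beside 4.85% and 1.5% of all listed sites). The called share was therefore higher in ZNF genes in each of these 4 libraries, by 1.24 to 2.00 times the share in other protein-coding genes. Coding sites had the wider gap, with 1.29 to 3.41 times the share of other coding sites, against 1.22 to 1.45 times in 3′ UTRs. ZNF503 and ZNF703 held 130 and 145 of the ZNF coding sites, and the coding gap was not computed without them.

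Most MCP fusions had a lower called share in ZNF genes than over all listed sites. MCP-ADAR2 DD (E488Q)-NLS had 417 ZNF calls with the MS2 adRNA and 330 without it (7.69% and 6.08%), beside 9.94% and 7.32% of all listed sites. MCP-ADAR2 DD (E488Q)-NES had 412 and 336 in the same order (7.59% and 6.19%), beside 11.2% and 9.21%. The wild-type ADAR2 domain gave the fewest calls. It had 68 with and 56 without guide as NLS fusion (1.25% and 1.03%), beside 1.24% and 0.982% of all listed sites. As NES fusion it had 220 with and 102 without guide (4.06% and 1.88%), beside 5.29% and 2.48%.

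Among the MCP fusions, the E1008Q and NES forms of ADAR1 gave the most calls. MCP-ADAR1 DD (E1008Q)-NLS had 1430 ZNF calls with and 1171 without guide (26.4% and 21.6%), beside 28.9% and 23.5% of all listed sites. As NES fusion the counts were 2555 with and 3047 without guide (47.1% and 56.2%), beside 51.1% and 59.2%. Wild-type MCP-ADAR1 DD-NLS had 304 with and 274 without guide (5.60% and 5.05%), beside 7.45% and 5.35%, and the NES form had 1343 with and 1617 without (24.8% and 29.8%), beside 26.4% and 30.3%. Cas13b-ADAR2 DD (E488Q) had 375 ZNF calls with its gRNA and 1239 without it (6.91% and 22.8%), beside 12.9% and 29.5% of all listed sites.

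Against other protein-coding genes, the ZNF share was thus lower in 14 of the 16 MCP libraries and in both Cas13b libraries, as the plot of called shares by library shows. The mean edited share over all listed sites, called or not, was nevertheless higher in ZNF genes in all 22 deaminase libraries, for example 9.01% against 6.22% in wild-type MCP-ADAR1 DD-NES without guide. The MCP pattern depended on the call rule: where a call also asked for a rise of at least 10 percentage points, the ZNF share was higher in 13 of the 16 MCP libraries and still higher in all 4 full-length libraries. Under that rule the Cas13b library without gRNA had 15.7% of ZNF sites called, against 15.3% of the sites of other genes, while the one with gRNA had 4.26%, against 5.94%. Called ZNF sites had a higher median share than called sites of other genes in all 22 libraries, for example 18.1% against 12.2% in the NES fusion of ADAR1 (E1008Q) without guide. With 1 library per condition none of these differences has a replicate check, and their relation to read depth was not tested. Without ZNF503 and ZNF703, the full-length wild-type library without guide had 1.96% of ZNF sites called instead of 2.84%, against 1.42% of the sites of other genes. Among the controls, GFP, the MS2 adRNA alone and the untransfected runs had 0 called ZNF sites. With GluR2 adRNA and no deaminase, and likewise with the gRNA of Cas13b and no deaminase, 1 ZNF site was called in each library, beside 0.0047% and 0.00601% of all listed sites.

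**Figure D1:**
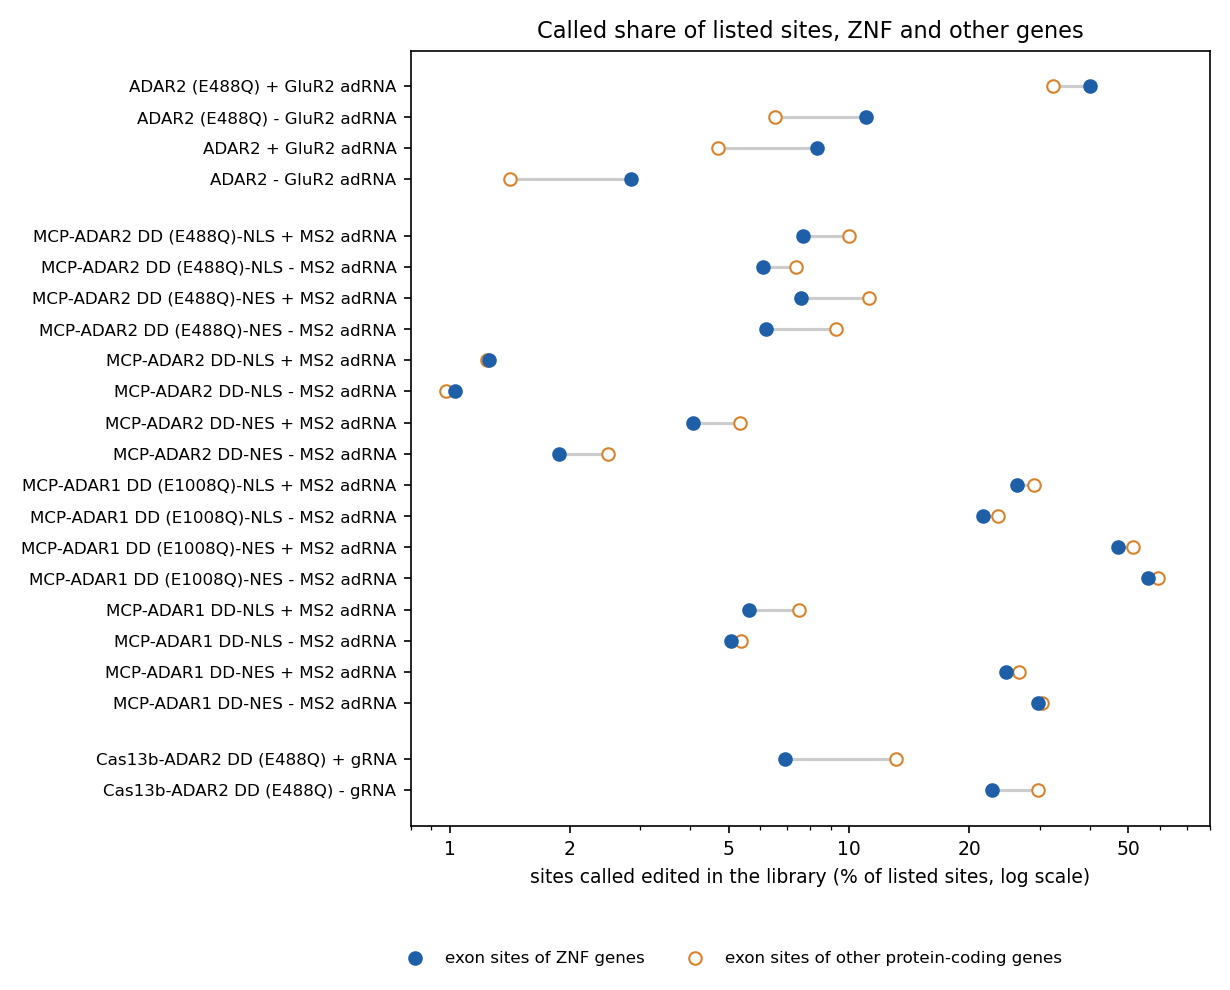
Percentage of listed exon sites called edited in each of the 22 deaminase libraries (log axis), filled points for ZNF genes and open points for other protein-coding genes, 1 library per line. The ZNF point lies to the right in all 4 full-length ADAR2 libraries, by 40.1% against 32.4% in the uppermost, and to the left in 14 of 16 MCP libraries and in both Cas13b libraries.

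Sites with high shares in nearly every construct come next, as a description, because they were chosen for their mean rise. ZNF644, which works with the histone methyltransferases G9a and GLP, had the highest mean rise of any ZNF coding site called in 11 or more libraries. Its R451G site rose by 49.0 ± 19.3 percentage points over the untransfected mean (SD over 22 libraries). Shares were 23.3% and 9.52% with wild-type full-length ADAR2 (with and without guide), 63.2% and 19.4% with E488Q. In the MCP libraries they ran from 32.4% through a median of 57.8% to 77.4% for ADAR2 domains and from 31.6% through 55.4% to 70.2% for ADAR1 domains, so the 2 domains overlapped almost whole.

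Other leading coding sites were K270R in ZNF358 (46.5 ± 15.1 points, all 22 libraries, in exons of 2 overlapping genes and so of uncertain origin), K318E in ZNF219, a transcription factor that partners SOX9 in cartilage (38.2 ± 17.7 points, 16 libraries), and Q894R in ZNF516, a cofactor of brown fat genes in mouse (37.0 ± 13.3 points, 17 libraries). I29V in ZNF787 reached 36.8 ± 16.3 points and was called in all 22 libraries. N76S in ZNF367 reached 36.3 ± 23.3 points in 12 libraries, with no call in the 4 full-length libraries. All 6 leading coding sites change an amino acid.

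In 3′ UTRs, 2 sites of ZNF282 were called in all 22 libraries. The one at position 149225276 rose by 45.2 ± 17.1 points. Full-length ADAR2 gave 82.2%, the highest of the 22, and 44.2% with E488Q (with and without guide), and 66.5% and 35.7% as wild type. In MCP libraries the shares ran from 17.3% through a median of 40.0% to 44.8% for ADAR2 domains and from 21.5% through 49.6% to 69.1% for ADAR1 domains. The second ZNF282 site, at 149225509, rose by 36.5 ± 12.3 points. ZNF275 (36.8 ± 19.1 points, 13 libraries), ZNF326, a subunit of the DBIRD complex that couples transcription and splicing (35.9 ± 21.5 points, 17 libraries), and 2 sites of ZNF740 (33.6 ± 11.6 and 32.1 ± 18.8 points) followed. Untransfected means at these 12 sites were 0.741% or lower.

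Where in the protein the coding sites fall can be read from the fingers. Of 3406 coding sites on an adenosine, 933 (27.4%) lay inside a C2H2 finger, while 26.6% of the adenosines of the same 154 coding sequences did. The density was 43.6 sites per 1000 adenosines inside the fingers and 41.9 outside, so the fingers as a whole held sites in about the proportion of their adenosines. With a stricter motif, which also asks for the conserved phenylalanine and leucine, 21.1% of sites and 19.1% of adenosines lay inside. The median rise was 5.08 points inside fingers and 3.77 points outside.

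Within the repeat the sites were not evenly placed. For this the 1119 fingers of the regular spacing were aligned at 28 residues, counting the first cysteine as 1, so that the zinc ligands are residues 1, 4, 17 and 21 and the linker runs from 22 to 28. It held 1053 sites in 103 genes. Position 6, a lysine in 70.6% of repeats and the residue 2 places after the second cysteine, had 203 sites in 57 genes, or 89.5 per 1000 adenosines. Of these, 126 were lysine to arginine. Position 27, the linker tyrosine that precedes the next finger, had 57 sites in 35 genes, or 72.4 per 1000 adenosines, 49 of them tyrosine to cysteine. Position 8, mostly phenylalanine, had 114 per 1000 but only 9 sites on 79 adenosines. The other positions with adenosines lay between 12.6 and 56.0 per 1000.

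The triplet around the adenosine went with large differences within a position. At position 6, AAG triplets held 151 sites on 640 adenosines (236 per 1000), while AAA triplets held 15 on 673 (22.3 per 1000). The lysine at position 25 of the linker had 126 sites per 1000 AAG adenosines and 10.7 per 1000 AAA adenosines. Position 27 had 39 sites on 351 UAC adenosines and 10 on 247 UAU adenosines.

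The zinc ligands split by their codons. Cysteine codons hold no adenosine, so residues 1 and 4 cannot be edited by these enzymes. The ligand histidines had 52 sites at position 17 and 38 at position 21, 46.5 and 34.0 per 1000 adenosines, in 40 genes and all 90 replace a zinc-binding histidine with arginine. At position 17, CAC codons held 49 sites on 617 adenosines and CAU codons 3 on 502. At position 21, CAC codons held 35 sites on 730 adenosines and CAU codons 3 on 389. Their median rise was 4.49 points, 6 were called in 11 or more libraries (6.67%, against 7.01% of all ZNF coding sites), and 24 were called in a full-length library (26.7%, against 37.2% of all ZNF coding sites). Over all coding ZNF sites, histidine to arginine made up 5.70% of changes, against 2.16% in other genes. Histidine adenosines are also more frequent in ZNF coding sequence (6.06% of coding adenosines, against 3.15% in other genes), and per 1000 such adenosines ZNF genes had 35.7 sites and other genes 41.1.

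**Figure D2:**
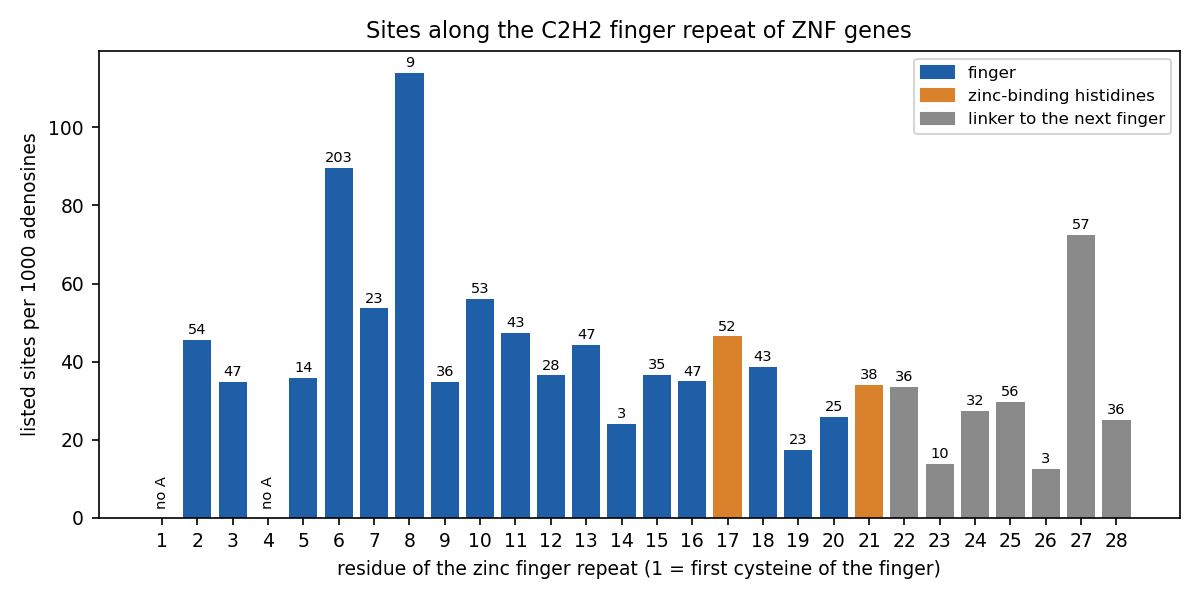
Listed sites per 1000 adenosines at each residue of the C2H2 repeat, over the 1119 regular fingers of ZNF genes with a coding site, with the number of sites above each bar. Residue 6 stands at 89.5 with 203 sites and residue 27 at 72.4 with 57, the zinc-binding histidines 17 and 21 have 52 and 38 sites, and the cysteine codons at 1 and 4 hold no adenosine.

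Single ligand histidines reached sizeable shares. These examples are the highest by mean rise at each residue and were chosen after their values were seen. H363R in ZNF316 ran from 21.7% through a median of 39.8% to 57.9% in the 4 full-length ADAR2 libraries, from 3.33% through 12.7% to 36.4% with MCP-ADAR2 domains and from 4.35% through 18.1% to 41.2% with MCP-ADAR1 domains. H877R in another finger of ZNF316 ran from 27.8% to 54.2% in the full-length libraries, from 6.35% to 27.4% with MCP-ADAR2 and from 7.41% to 44.3% with MCP-ADAR1. H168R in ZNF787 had the opposite order, with medians of 9.48% in the full-length libraries, 22.2% with MCP-ADAR2 and 32.3% with MCP-ADAR1. At position 21, H564R in ZNF319 had the largest mean rise, 17.6 ± 14.7 points (SD over 22 libraries). At the linker tyrosine, Y607C in ZNF408, a protein of retinal vessel development, ran from 11.9% to 53.5% in the full-length libraries, and at position 6, K421R in ZNF71 ran from 36.4% through 52.4% to 70.4% with MCP-ADAR1.

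The E-to-Q change raised many ZNF sites in the MCP fusions. Each comparison of constructs used limma on the 16 libraries after an arcsine square-root transform, with Benjamini-Hochberg adjustment over all 382978 sites and a threshold of 0.05. The fit had variant, localisation, enzyme and guide as terms and none for pairs. Differences in points and their SD are over 8 matched pairs of libraries. Higher with E-to-Q were 1986 ZNF sites (36.6%, beside 39.7% of all listed sites), and lower were 44 (0.811%, beside 0.72%). The median difference was 2.23 points over ZNF sites and 1.57 points over all listed sites. Coding sites were higher more often (1337 of 3407) than 3′ UTR sites (513 of 1644), as in other genes (42.5% of coding and 34.3% of 3′ UTR sites).

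Sites named for variant, ADAR domain or localisation had to pass the threshold and move the same way in all 8 pairs. The pair counts given with them follow from that choice. Among those higher with E-to-Q, N76S in ZNF367 had the largest rise in share, 31.9 ± 10.9 points (SD over 8 pairs, limma adjusted p = 8.62e-05, higher in 8 of 8 pairs). It stood at 27.3%, 60.5% and 75.0% (lowest, median, highest) with E-to-Q and at 10.0%, 29.2% and 53.0% with wild type, so the groups overlapped. Y62C in ZNF143, an activator that binds many promoters and snRNA genes, stood at 23.3%, 39.9% and 72.3% with E-to-Q and at 0%, 8.63% and 35.9% with wild type (31.4 ± 6.44 points, adjusted p = 6.02e-05, 8 of 8 pairs). Sites in ZNF398 and ZNF142, both in exons outside the transcript used for the classes, rose by 29.3 ± 9.44 and 28.6 ± 11.1 points, and at both the E-to-Q and wild-type libraries did not overlap.

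A few sites fell. N443D in ZNF644, close to R451G of the same gene, averaged 5.22% with E-to-Q and 18.0% with wild type, a difference of -12.7 ± 6.72 points (SD, n = 8 pairs, limma adjusted p = 0.000415, lower in 8 of 8 pairs). Within NLS libraries alone its adjusted p was 0.0688. R451G itself was higher with E-to-Q by 20.7 ± 16.5 points in 8 of 8 pairs (limma adjusted p = 0.00542), so these neighbouring adenosines of 1 transcript moved in opposite directions. S895G in ZNF574 averaged 4.41% with E-to-Q and 15.2% with wild type (adjusted p = 0.000447). A 3′ UTR site of ZNF672 (adjusted p = 0.0159) and N463D in ZNF410, a regulator of CHD4 (adjusted p = 0.0098, in exons of 2 genes), also fell, and both calls were lost in some alternatives (adjusted p up to 0.336 for ZNF672 within NLS libraries and 0.0809 for ZNF410 within NES libraries).

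The ADAR domain made the widest difference. ADAR2 libraries had lower shares at 3712 ZNF sites (68.4%, beside 66% of all listed sites) and higher shares at 106 (1.95%, beside 2.6%). The median difference was -4.20 points over ZNF sites and -2.68 points over all listed sites. S345G in ZNF408 stood at 0%, 0% and 12.2% (lowest, median, highest) with ADAR2 domains and at 24.2%, 56.3% and 67.6% with ADAR1 domains, with no overlap and a difference of -50.9 ± 13.8 points (adjusted p = 8.42e-07, lower in 8 of 8 pairs). The next were a 3′ UTR site of ZNF142, K489R in ZNF710 and V205V in ZNF574, with differences of -50.6 ± 15.0, -50.5 ± 15.8 and -48.0 ± 11.0 points. None of these groups overlapped.

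The sites higher with ADAR2 were led by E34G in ZNF496, a SCAN and KRAB protein. It averaged 44.2% with ADAR2 domains and 11.8% with ADAR1 domains (32.5 ± 13.2 points, adjusted p = 6.99e-05, higher in 8 of 8 pairs), the groups overlapping through 1 ADAR2 library at 7.41%. D414G in ZNF384, a factor known from fusions in acute leukaemia, averaged 29.7% with ADAR2 and 3.76% with ADAR1 without overlap (adjusted p = 2.24e-06), in exons of 2 genes. N384S in ZNF281, a regulator of pluripotency genes, averaged 21.7% with ADAR2 and 2.09% with ADAR1 without overlap (adjusted p = 4.62e-06). R408G in ZNF335, part of a histone H3K4 methyltransferase complex, averaged 27.9% with ADAR2 and 8.81% with ADAR1 (adjusted p = 0.000319). E34G and D414G carry a G before the edited base, in the triplets GAG and GAU.

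Localisation moved few ZNF sites past the threshold. Higher in NLS libraries were 4 (0.0737%, beside 0.0397% of all listed sites) and lower were 144 (2.65%, beside 3.76%), with 64 of the lower ones in 3′ UTRs and 74 in coding sequence. The median difference was -1.91 points over ZNF sites and -1.46 points over all listed sites. These calls are not firm: with the matched pairs as a block, or on untransformed shares, 0 ZNF sites passed, and 1458 had an unadjusted p under 0.05. Q160R in ZNF414 stood at 8.11%, 23.1% and 32.3% (lowest, median, highest) in NLS libraries and at 30.0%, 35.2% and 56.8% in NES libraries (-17.7 ± 11.6 points, limma adjusted p = 0.036, lower in 8 of 8 pairs, adjusted p = 0.071 with the block). A site in the 3′ UTR of ZNF385A, a binder of mRNA 3′ UTRs and of p53, averaged 5.09% in NLS libraries and 19.2% in NES libraries (adjusted p = 0.0206, and 0.0637 with the block). The 3′ UTR site of ZNF672 (-13.8 points, adjusted p = 0.0302) and the ZNF282 site at 149225509 (-13.5 points, adjusted p = 0.0272) were lower in 8 of 8 pairs, with 0.0735 and 0.0731 with the block.

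In the other direction, Y141C in ZNF76, the paralogue of ZNF143, averaged 14.0% in NLS libraries and 0.810% in NES libraries without overlap (13.1 ± 8.50 points, limma adjusted p = 0.0195, higher in 8 of 8 pairs). S457G in ZNF703 averaged 45.5% in NLS libraries and 34.1% in NES libraries (11.5 ± 4.43 points, adjusted p = 0.0208). A 3′ UTR site of ZNF445, a guardian of imprinted loci, averaged 26.7% in NLS libraries and 7.63% in NES libraries (19.0 ± 21.2 points, adjusted p = 0.0366). With the block these had adjusted p of 0.0637, 0.0658 and 0.0712.

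No ZNF site was called for the MS2 adRNA: 0 passed limma's adjusted threshold, beside 0.000783% of all listed sites, 199 had an unadjusted p under 0.05, and the median difference with against without guide was 0.0604 points. On the log2(percent + 1) scale, or among sites with a mean share of at least 2%, 1 passed. At the 12 leading sites the guide difference ran from -10.2 ± 10.5 points in ZNF367 (SD, n = 8 pairs) to 4.67 ± 7.60 points in the ZNF326 3′ UTR. The interaction of variant and localisation passed limma's threshold at 0 ZNF sites (beside 0.00183% of all listed sites), and 246 ZNF sites had an unadjusted p under 0.05. The interaction of enzyme and variant passed at 146 ZNF sites (2.69%, beside 3.69%).

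**Figure D3:**
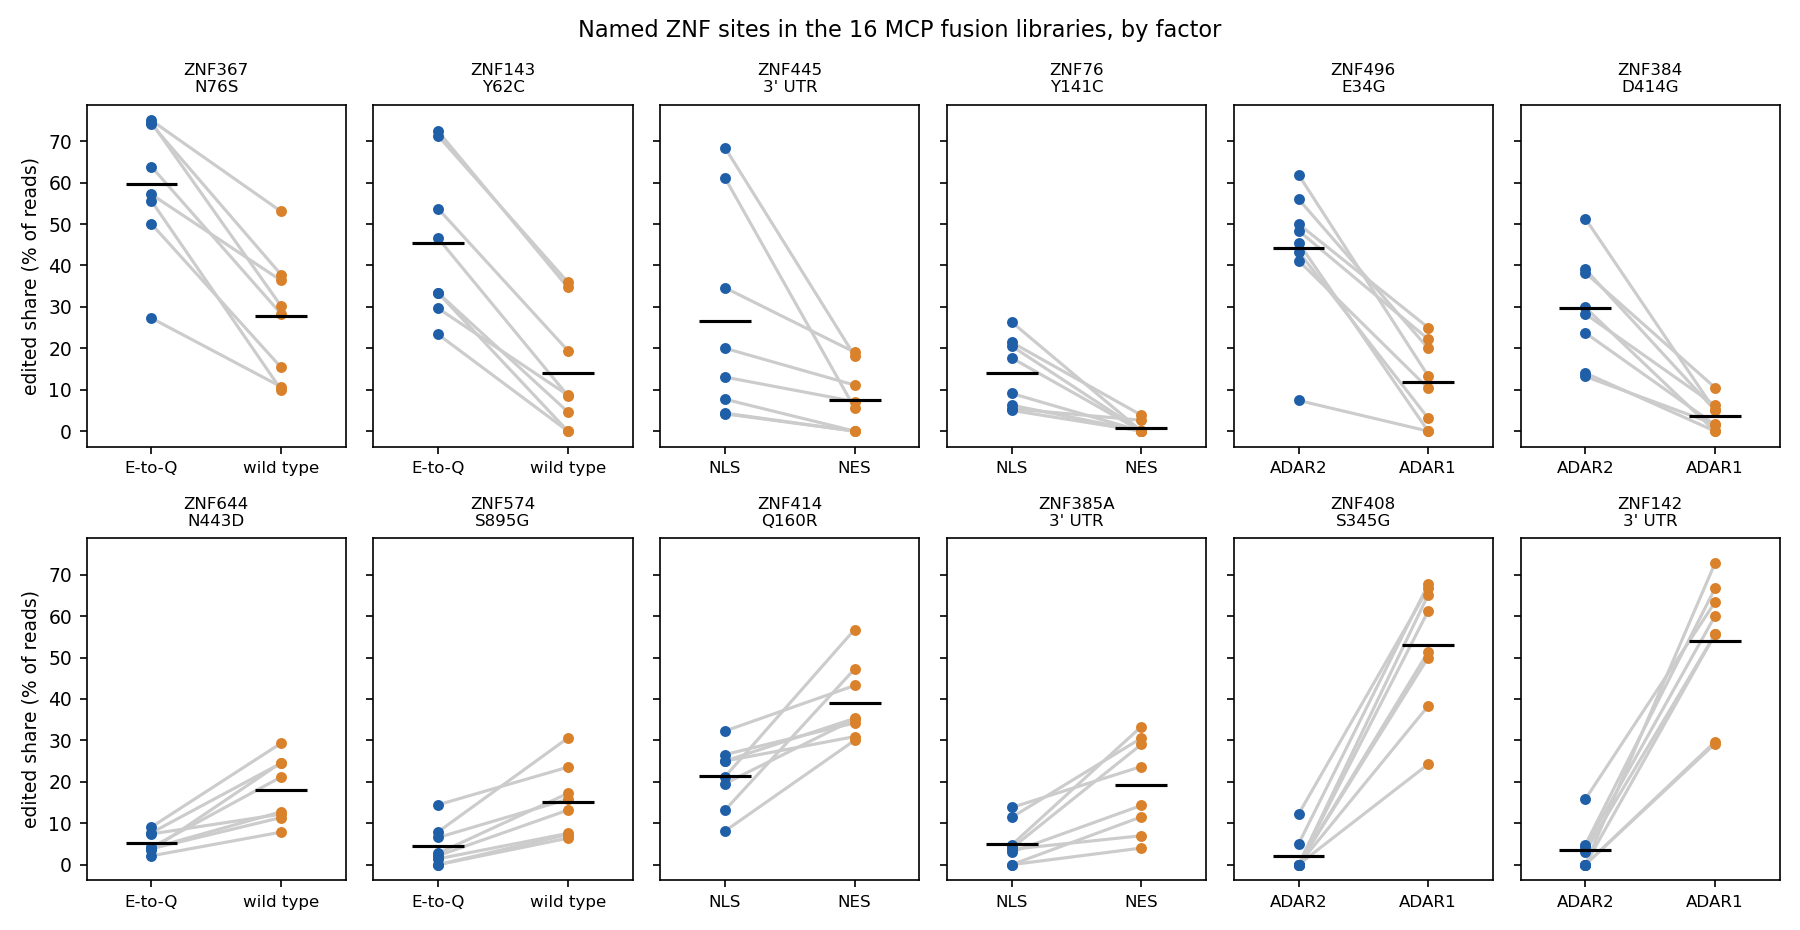
Edited share in percent of reads at 12 ZNF sites in the 16 MCP libraries, split by variant, localisation or enzyme, with grey lines joining the 8 matched pairs and black bars for the means. The upper panels hold sites that were higher in the left group and the lower panels sites that were lower in it. ZNF408 S345G stands at 0% to 12.2% with ADAR2 and 24.2% to 67.6% with ADAR1.

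By role, 4 partial lists of genes were used, and ZNF496, a SCAN and KRAB protein, stands on the SCAN list alone. Sites were found in 22 of 99 genes listed as KRAB, 11 of 14 as SCAN, 16 of 23 as activators and chromatin cofactors, and 13 of 14 with roles in RNA, ribosomes or the spindle. Over all ZNF genes it was 172 of 509. These counts depend on which genes were listed. ZNF282 alone held 281 of the KRAB sites, and ZNF598 held 208 of the RNA-role sites. With E-to-Q, 31.7% of the 646 KRAB sites were higher and 1.24% lower, 40.5% of the 309 SCAN sites were higher and 0.647% lower, 36.3% of the 597 activator sites were higher and 1.01% lower, and 40.9% of the 492 RNA-role sites were higher and 1.42% lower. The median rise over untransfected was 4.22 points in KRAB, 4.32 in SCAN, 5.26 in activator and 2.63 in RNA-role genes, beside 4.13 over all ZNF sites. Apart from ZNF282, the leading genes of the KRAB list were ZNF394, by R68G (27.1 points), and ZNF274, which brings the methyltransferase SETDB1 to the ends of ZNF genes, by the synonymous E368E (22.4 points).

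Of the SCAN genes, Q317R in ZNF263 rose by 28.2 points, T138A in ZNF444 by 28.1 points and the synonymous L143L in ZNF449 by 26.9 points. The activator list was led by the ZNF644, ZNF219 and ZNF516 sites given above. In the RNA-role list a 5′ UTR site of ZNF326 rose by 39.7 points, the synonymous A319A in ZNF385A by 33.5 points and a 3′ UTR site of ZNF106 by 28.4 points. Called in at least 1 full-length ADAR2 library were 50% of KRAB sites, 48.9% of SCAN sites, 35.5% of activator sites and 29.9% of RNA-role sites, beside 41.6% of all ZNF sites, and these differences were not tested.

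A set of ZNF sites was called with full-length ADAR2 and with no MCP fusion. Unlike the MCP fusions, full-length ADAR2 keeps its double-stranded RNA-binding domains, which hold long paired RNA. At least 1 of its 4 libraries called 2257 ZNF sites, and 1148 of these were called in no MCP library (21.2% of ZNF sites, against 15.3% of the sites of other genes). All 4 libraries called 130 ZNF sites (2.40%, against 1.15%), and 42 of those in 11 genes had no MCP call (0.774%, against 0.283%). The E488Q library with guide held most of the calls: without it, 751 ZNF sites were called in a full-length library (13.8%, against 8.34% of the sites of other genes), and 272 of these in no MCP library (5.01%, against 2.93%). Of the sites called in all 4, those with no MCP call made up 23 of 42 in ZNF 3′ UTRs (54.8%, against 31.7% in 3′ UTRs of other genes) and 15 of 81 in ZNF coding sequence (18.5%, against 13.8% in other coding sequence). Few genes carried these counts: ZNF655 held 9 and ZNF121 held 8 of the 23 sites, and ZNF503 held 11 of the 15. The contrast is therefore not a general trait of ZNF genes.

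These 42 sites were chosen by calls in the same libraries, so their shares are a description. ZNF503 had 12 of them, ZNF655 had 9, ZNF121 had 8 and ZNF589 had 3. The highest was position 99574516 in the ZNF655 3′ UTR, a KRAB-bearing regulator of the cell cycle, at 79.1% and 75.6% with E488Q (with and without guide) and 91.2% and 85.2% with wild type. Its highest value in the 16 MCP libraries was 10.3% and its Cas13b mean was 13.8%. At this position shares were higher with wild type than with E488Q, and at 99575319 the values were 65.7% and 71.4% with E488Q and 85.7% and 86.5% with wild type. Other ZNF655 sites had the reverse order, such as 99574490 at 88.4% and 82.6% with E488Q and 68.6% and 64.0% with wild type. Over all listed sites of the gene the means were 32.9% and 31.5% with E488Q and 23.8% and 24.0% with wild type. In ZNF121, position 9564279 was at 93.3% and 60.0% with E488Q and at 48.6% and 55.2% with wild type, with 0% in all 16 MCP libraries. ZNF621 at 40537568 had 73.7% and 44.8% with E488Q and 65.6% and 65.4% with wild type, and at most 6.06% in MCP libraries. Other sites of the set had higher MCP shares without a call. The highest MCP share was 29.6% at 9564371 in ZNF121 and 25.9% at 99575319 in ZNF655. K579R in ZNF668, in exons of 2 genes, averaged 13.0% with MCP-ADAR1 and 10.7% with MCP-ADAR2. A site with no MCP call can therefore still have edited reads in MCP libraries.

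In ZNF655 the sites stood in 2 clusters. The first held 9 sites between 845 and 935 bases after the stop codon, with mean shares of 14.3% to 82.7% in full-length libraries and 0.284% to 8.73% in MCP libraries. The second held 14 sites between 1696 and 1926 bases, with 10.2% to 92.3% in full-length libraries and 0.298% to 61.1% in MCP libraries. Both upper ends belong to position 99575277, which was at 57.0% in untransfected cells. None of these 23 sites was called in an MCP library. The other 7 sites of this 3′ UTR, from 659 to 2561 bases, had the opposite pattern, with at most 3.44% in full-length libraries and a call in at least 1 MCP library at each.

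Each ZNF655 cluster contained a stretch of 17 bases that is the exact reverse complement of the other with 773 bases between them. In ZNF121, 36 of 37 listed 3′ UTR sites were called in a full-length library and 2 in an MCP library. A full-length library called 47.4% of all ZNF 3′ UTR sites and 38.4% of those in other genes. Of the 37 sites, 30 lay within 50 bases of a reverse-complement stretch of 16 or more bases. This 3′ UTR held 17 such stretches, and the share of its own adenosines near one was not computed. Over all ZNF sites placed on a transcript, 15 of the 42 sites described above (35.7%, in ZNF655 and ZNF121) lay within 50 bases of a reverse-complement stretch of at least 16 bases. Of sites called in no full-length library 0.322% did, of all ZNF sites 1.34%, and of all adenosines of the same transcripts 1.85%. The measure was chosen after the sites were seen and has no test. No such stretch stood near the ZNF503, ZNF589 or ZNF621 sites.

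**Figure D4:**
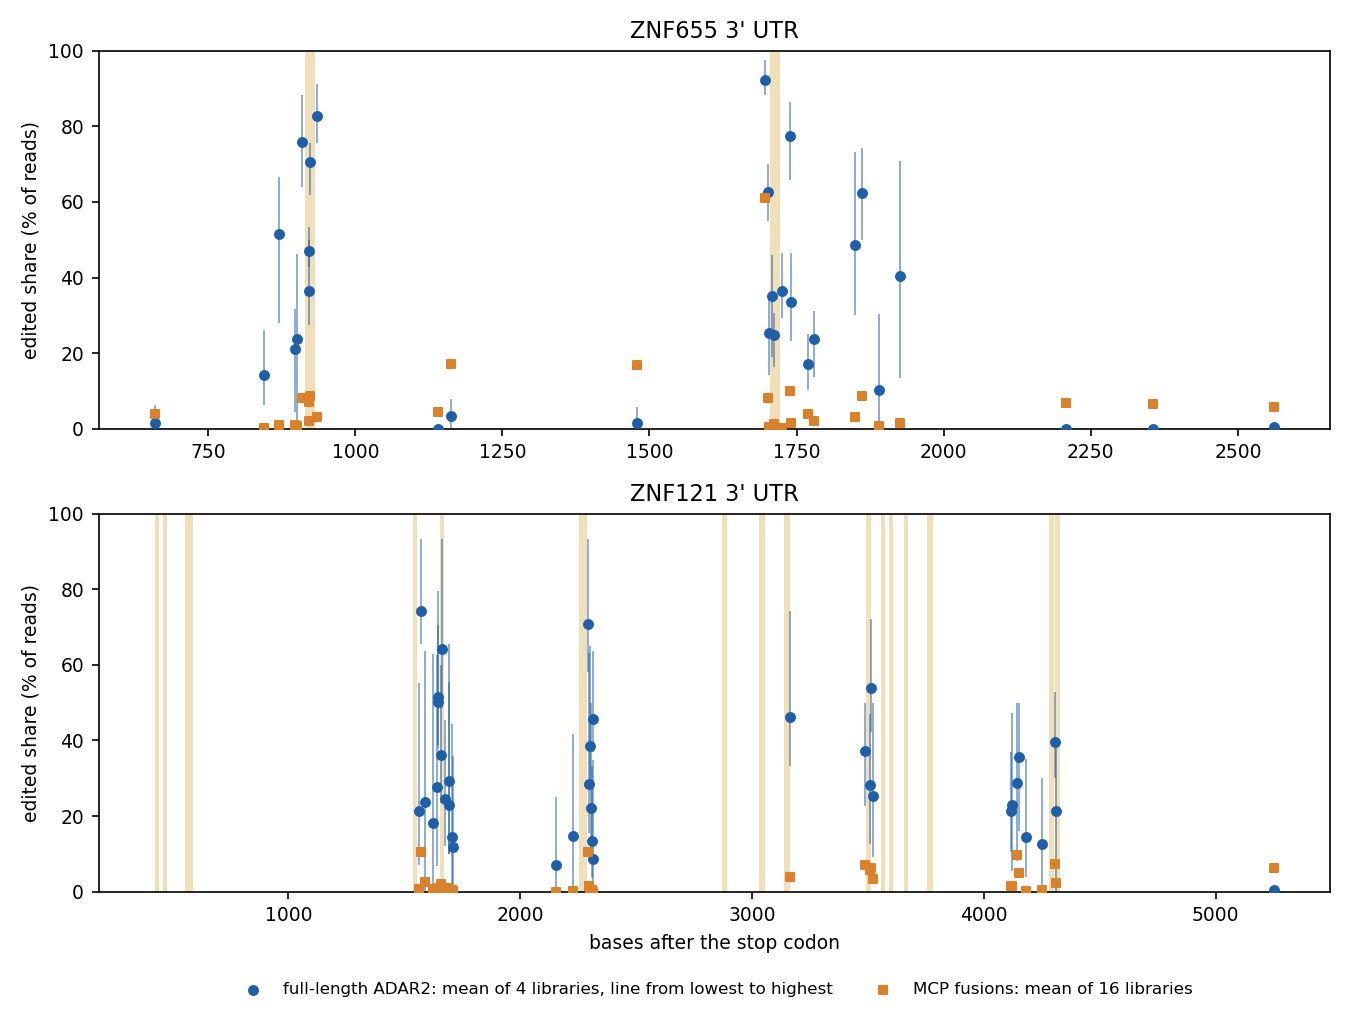
Edited share in percent of reads along the 3′ UTRs of ZNF655 and ZNF121, by bases after the stop codon, with circles for the mean of the 4 full-length ADAR2 libraries, vertical lines from their lowest to highest value, and squares for the mean of the 16 MCP libraries. Shaded bands are stretches of at least 16 bases whose reverse complement is in the same transcript. The ZNF655 sites lie in 2 groups, at 845 to 935 and 1696 to 1926 bases.

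ZNF503, the corepressor, had 140 of 157 sites called in a full-length library and 39 called in all 4. Of all ZNF sites 41.6% and 2.40% were, and of the sites of other genes 32.9% and 1.15%. MCP-ADAR1 libraries called 75 of the 157 and MCP-ADAR2 libraries 7, and the matching shares over other sites were not computed. Without the E488Q library with guide, 85 ZNF503 sites were called in a full-length library (54.1%, against 8.34% of the sites of other genes). The mean share over ZNF503 sites was 6.08% in full-length, 0.528% in MCP-ADAR2 and 2.00% in MCP-ADAR1 libraries. The 12 ZNF503 sites called in all 4 full-length libraries and in no MCP library were low, with full-length means of 5.61% to 18.2%. Of these, 11 were coding, among them K305E, T327A and H440R. K305E stood at 30.6% and 16.6% with E488Q and at 10.1% and 9.44% with wild type.

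Across the 69 ZNF genes with at least 20 sites, the mean share was higher with full-length ADAR2 than with MCP-ADAR2 in 59 and higher than with MCP-ADAR1 in 15. Much of this came from 1 library: without full-length ADAR2 (E488Q) with guide the counts were 36 and 9. ZNF121 had the widest gap, at 27.7% with full-length ADAR2, 1.82% with MCP-ADAR2 and 3.39% with MCP-ADAR1, followed by ZNF655 at 28.1%, 4.10% and 7.73% in the same order. Among the 25 genes with the most sites ZNF316 led, at 12.7% with full-length ADAR2, 3.53% with MCP-ADAR2 and 7.62% with MCP-ADAR1. ZNF787, ZNF777 and ZNF710 had the reverse order, with 2.27%, 1.56% and 2.28% in full-length libraries and 5.01%, 2.43% and 4.57% with MCP-ADAR2. For ZNF710, MCP-ADAR1 gave 17.0%.

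**Figure D5:**
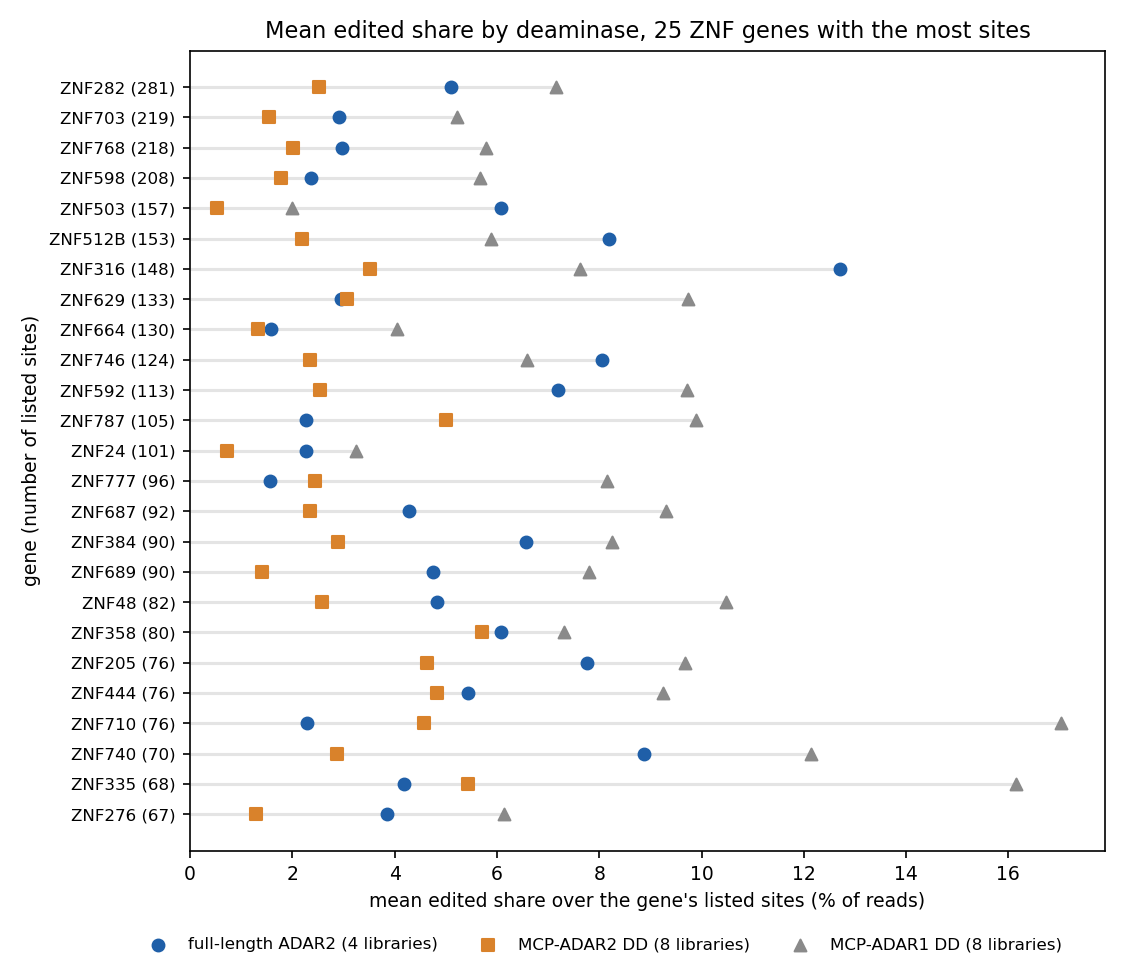
Mean edited share over the listed sites of the 25 ZNF genes with the most sites, in percent of reads, for full-length ADAR2, MCP-ADAR2 DD and MCP-ADAR1 DD. ZNF316 has the circle farthest to the right of the square (12.7% against 3.53%), ZNF503 stands at 6.08% against 0.528%, and ZNF710 has the widest lead of MCP-ADAR1, at 17.0%.

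Some ZNF sites had edited-base reads without any deaminase plasmid, and the origin of these reads was not tested. The untransfected mean was at least 5% at 7 ZNF sites (0.129%, against 0.143% of the sites of other genes), 5 of them in 3′ UTRs. The ZNF655 site at 99575277, in the second cluster, was at 57.0% in untransfected cells and at 92.3% in full-length, 64.4% in MCP-ADAR2, 57.8% in MCP-ADAR1 and 72.0% in Cas13b libraries, each as a mean. A 5′ UTR site of ZNF580 stood at 37.2%, and the synonymous Q202Q of ZNF346, a binder of double-stranded RNA, stood at 24.2% and was called in none of the 22 libraries. Its means were 23.9% in full-length, 24.4% in MCP-ADAR2, 23.7% in MCP-ADAR1 and 22.0% in Cas13b libraries, so it stood near the untransfected level in every construct group.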

How the data were processed

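The authors deposited, per the file headers, a table of the fraction of reads with the edited base (a share from 0 to 1, given here in percent) and a table of adjusted p-values at the same sites, with no read counts, so depth and counting error are unknown. GRCh38.p12 as the build, and STAR 2.6.0c, SAMtools and bcl2fastq 2.18.0.12 as tools, come from the submitters' processing notes. Neither the test behind the p-values nor the choice of listed sites is given in the sources used here. Libraries came from 300 ng of RNA and 100 bp reads, per the labels' protocols. In the table of shares, 1 column has no sample name and was not used, so the control is the mean of untransfected runs 2, 3 and 4.

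Sites were placed on GENCODE 29 (1 transcript per gene) with Python 3.11.15, numpy 2.4.6, pandas 2.3.3 and scipy 1.17.1, and sequences come from its transcripts. The 16 MCP libraries were fitted in R 4.3.3 with limma 3.58.1 at all 382978 sites, on the arcsine square-root scale, with variant, localisation, enzyme and guide as terms, an intensity trend and Benjamini-Hochberg adjustment. In simulated data with independent noise and few altered sites, a variant effect of 0.2 arcsine units was found at 62% of the altered sites. An effect of 0.1 units was found at 6%. Far more sites passed for variant in the data, so these percentages are not the power of the fit reported here. Plots used matplotlib 3.10.9. Named were the 6 coding and 6 3′ UTR sites with the highest mean rise, up to 4 sites per factor and direction that moved alike in all 8 pairs, the 6 genes with the most sites and up to 3 genes per list, other names being marked where they occur. Finger residues, gene means and sites called with full-length ADAR2 but in no MCP library are named outside that rule, after their values were seen. The members and lists were chosen with earlier results of these data known.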

Additional observations from a re-analysis of the deposited data

Results flagged for a closer look

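At 146 ZNF sites (beside 3.69% of all listed sites, 2.69% of ZNF sites) the effect of the E-to-Q change differed between the ADAR2 and ADAR1 domains by limma's interaction term at an adjusted p under 0.05. The E-to-Q effect was smaller with ADAR2 at 140 of them and larger at 6, with 98 coding and 33 3′ UTR sites. The examples are among the largest interactions in their direction and were chosen after their values were seen. At position 53188151 in the ZNF740 3′ UTR, E-to-Q and wild type averaged 0% and 1.00% with ADAR2, and 39.1% and 4.86% with ADAR1 (adjusted p = 0.00534, limma). At S218G in ZNF629 they averaged 23.7% and 0.625% with ADAR2, and 8.08% and 3.13% with ADAR1 (adjusted p = 0.0292, limma). At H491R in ZNF7 they averaged 1.09% and 1.00% with ADAR2, and 24.5% and 0% with ADAR1 (adjusted p = 0.00983, limma). On untransformed shares 533 ZNF sites passed this test, and the cause of that difference was not tested.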

How the results depend on the processing

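Replicates could not be paired, because every condition is 1 library and the numbers of the untransfected runs follow accession order. With the matched construct pairs as a block, 2022 ZNF sites passed for variant, 3644 for enzyme and 0 for localisation, against 2030, 3818 and 148. Localisation gave 0 on untransformed shares, 266 among sites of at least 2% mean share, 234 without the intensity trend and 245 with the enzyme by variant term. Variant gave 539 in NES and 775 in NLS libraries alone, and enzyme 3664 in NES and 1003 in NLS libraries alone. The guide gave 1 site on log2(percent + 1) and 1 among sites of at least 2% mean share, and the interaction of enzyme and variant gave 533 on untransformed shares. For the sites named by factor, 15 recomputed values for localisation, 5 for variant and 1 for enzyme lost their call, and none reversed. Calls over the 22 libraries numbered 18676 without each untransfected run in turn, 23072 at an adjusted p under 0.05, 13046 under 0.001 and 13148 with a rise of at least 10 points. Leaving out a run keeps the deposited p-values and only shifts the untransfected mean that a share must exceed. The count of 18676 could therefore hardly move and checks little. The finger share was 21.1% with the stricter motif, and coding sites made up 64.1% of sites called in at least 2 libraries, against 62.8%. The genes left out, the full-length library left out and the match length were chosen after seeing the data: all 4 full-length libraries had the higher ZNF share under each call rule and each set of genes, and the 42 sites held 21 with a match of 12 bases and 15 with 14 or 16. Depth is unknown, low shares of single sites cannot be told from counting error, and the cause of the changes was not tested.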
